A study of Homo sapiens with 12 samples.

Results

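The 7 genes that encode the human inhibitors of cyclin-dependent kinases (CDKs) were followed in SNU308, a human gallbladder cancer cell line, after knockdown of CEACAM6, a glycoprotein anchored at the cell surface. They were chosen by family membership, and comprise CDKN1A, CDKN1B and CDKN1C (the CIP/KIP group) and CDKN2A, CDKN2B, CDKN2C and CDKN2D (the INK4 group). They were 7 of the 60617 genes in the files, and all 7 were among the 17620 genes expressed well enough to be tested. RNA-seq was run on 12 samples in 3 groups of 4, taken at day 3 after transfection with siRNA at 25 nM. The groups were a non-targeting control (NTC) and 2 siRNAs against different sites of CEACAM6 mRNA, siCEACAM6#2 and siCEACAM6#3. All 12 samples came from this 1 cell line, so p-values measure the spread between replicate samples of the same line. The sample titles number the replicates and do not say whether these were separate experiments. Each siRNA was set against NTC to ask whether loss of CEACAM6 changed the expression of these brakes on the cell cycle, and the siRNAs were set against each other to ask whether both did the same.

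CDKs, paired with cyclins, drive a cell through its division cycle, and CDK inhibitors bind and silence them. INK4 proteins bind CDK4 and CDK6 and keep the D-type cyclins from activating them, whereas CIP/KIP proteins bind a wider range of cyclin-CDK complexes, above all those with CDK2. When these kinases are held back, the retinoblastoma protein RB stays active and restrains the E2F transcription factors, and the cell does not enter S phase. The inhibitors are induced in senescence and by DNA damage, TGF-beta and contact between cells, and CDKN2A and CDKN2B are often deleted in cancer.

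Total estimated counts ran from 21799476 to 22059456 per sample, so depth hardly differed. The mitochondrial share of the counts was 11.8% to 13.3% in the NTC and siCEACAM6#2 samples and 12.5% to 15.3% in the siCEACAM6#3 samples, and its part in the results below was not tested. All 10 epithelial and biliary marker genes were expressed, with a summed level of 8573 to 9740 TPM (a level per transcript length, scaled to the same sum in every sample), and KRT19, a bile duct keratin, had a mean of 3244 TPM. None of the 3 hepatocyte markers reached a mean of 1 TPM, and the leukocyte marker PTPRC (0.053 TPM) and the endothelial marker PECAM1 (0.131 TPM) were near 0. CEACAM6 itself was measured in CPM, the count relative to library size after scaling by TMM factors. Its range was 524 to 619 CPM in the controls, 286 to 353 CPM under siCEACAM6#2 and 386 to 438 CPM under siCEACAM6#3. By limma-voom, the test used for all comparisons here, it fell by 0.82 (SE 0.068, adjusted p = 2.71e-05) and by 0.46 (SE 0.067, adjusted p = 0.0151) on the log2 scale, so the knockdown was partial with both siRNAs and the RNA of the gene remained at 0.57 and 0.73 of the control level. The fall with siCEACAM6#2 passed in all 12 fits that left out 1 sample, and that with siCEACAM6#3 missed the threshold in 4 of them, those without NTC replicate 2, 3 or 4 or siCEACAM6#3 replicate 3 (adjusted p up to 0.0792). Replicate libraries, scaled by total counts, differed on average by more than counting noise. The mean chi-square per gene was 2.87 to 26.2 between pairs of the same group, and the median was 0.763 to 3.59.

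The siRNA target sequences are shown because a short match to the first bases of the guide strand can lower other genes. Both targets lie in the last part of CEACAM6 on chromosome 19, in its 3' untranslated region, at chr19:41771369-41771389 for siCEACAM6#2 and chr19:41771611-41771631 for siCEACAM6#3 (GRCh38, plus strand). The capitals mark the 7 bases that pair with guide positions 2 to 8, the seed.
siCEACAM6#2: cagccatgcaatgCCAAATAa
siCEACAM6#3: ctcctaatagtcaTACTAGTa
The annotated 3' untranslated regions of the 7 inhibitor genes held neither seed site (0 of 7 for each siRNA). Among 13642 tested genes with such a region, 18.2% held the site of siCEACAM6#2 and 7.84% that of siCEACAM6#3. The site of siCEACAM6#3 occurred in the coding sequence of 2 members, CDKN2C at chr1:50970421-50970447 (plus strand) and CDKN1C at chr11:2885406-2885432 (minus strand), shown with 10 bases on each side and the match in capitals.
CDKN2C: tagagcaactTACTAGTttgttgcaaa
CDKN1C: accttcccagTACTAGTgcgcaccagc
Neither of these genes was called changed with siCEACAM6#3, as given below. The share of all tested genes with this site in their coding sequence was not determined.

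The 7 genes covered a wide range of levels, and their order was the same in 12 of 12 samples. CDKN2A, which encodes p16INK4a and, from another first exon and reading frame, p14ARF, stood first with a mean of 402 TPM (326 to 449). It ranked 261 by mean TPM among the tested genes and held 71.2% of the summed TPM of the family (67.0% to 74.8% over samples). CDKN1A, which encodes p21, followed with 68.2 TPM (51.4 to 89.4), ahead of CDKN2B, which encodes p15INK4b, with 50.1 TPM (42.7 to 59.7). CDKN1B, which encodes p27, had 25.9 TPM (24.2 to 27.3) and CDKN2C, which encodes p18INK4c, 12.6 TPM (9.21 to 16.8). CDKN2D, which encodes p19INK4d, had 3.91 TPM (2.83 to 4.90), and CDKN1C, the imprinted gene of p57, stood last with 1.62 TPM (1.03 to 2.06). The ranges of neighbours in this order overlapped over all samples only for CDKN1A and CDKN2B, and within each sample CDKN1A was the higher of this pair.

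**Figure D1:**
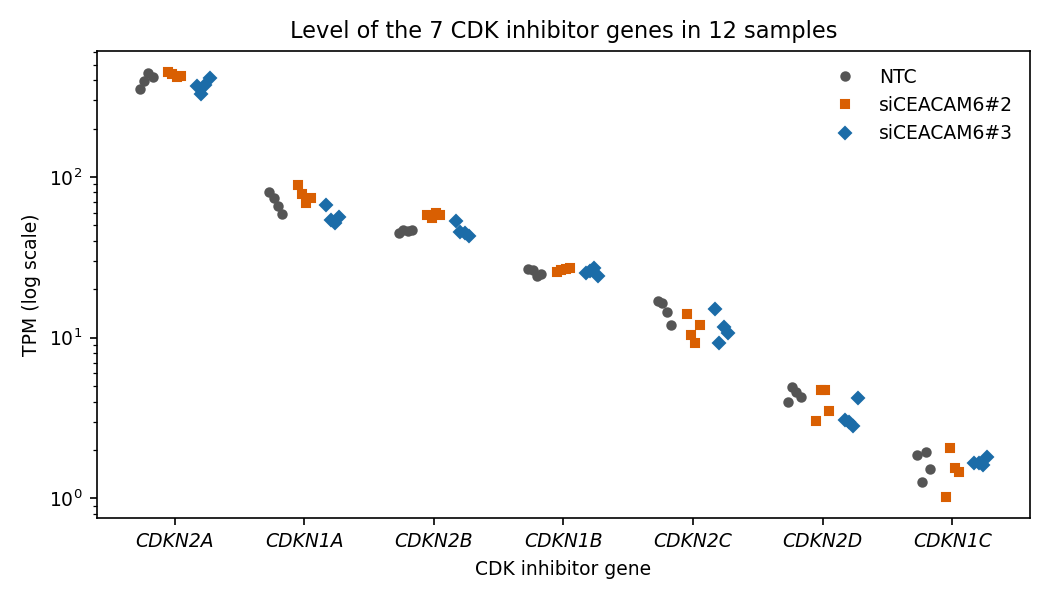
Level of each CDK inhibitor gene in TPM (log axis) in the 12 samples, with 1 point per sample and colours for NTC, siCEACAM6#2 and siCEACAM6#3 (n = 4 each). The genes keep the order CDKN2A, CDKN1A, CDKN2B, CDKN1B, CDKN2C, CDKN2D, CDKN1C in every sample, from a mean of 402 TPM to 1.62 TPM.

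The INK4 group made up most of the inhibitor RNA of these cells. Its 4 genes summed to 468 ± 36.5 TPM (SD, n = 4) in NTC, 506 ± 12.9 TPM with siCEACAM6#2 and 431 ± 36.7 TPM with siCEACAM6#3. The 3 CIP/KIP genes summed to 96.9 ± 10.4, 106 ± 7.88 and 84.3 ± 6.36 TPM in the same order. The INK4 share of the family was 82.8% ± 2.58, 82.7% ± 0.704 and 83.6% ± 1.39, and the 3 groups overlapped in it.

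A gene was called when its Benjamini-Hochberg adjusted p over all tested genes was under 0.05. Over the family, 1 of 7 genes was called with siCEACAM6#2 versus NTC (CDKN2B, higher), where 1.25% of all tested genes were called. With siCEACAM6#3 it was 0 of 7 by limma-voom, where 0.0681% of all genes were called. At an unadjusted p under 0.05 it was 3 of 7 (12.5% of all genes), and edgeR and DESeq2 also called 0. In the average of both siRNAs 0 of 7 were called by limma-voom (0.227% of all genes), 2 of 7 had an unadjusted p under 0.05 (12.9% of all genes), and edgeR called 0 and DESeq2 called 1, CDKN2B. Between the siRNAs 2 of 7 were called (CDKN1A and CDKN2B), both lower with siCEACAM6#3, where 1.47% of all genes were called. Groups that did not overlap in CPM were seen for 1 of 7 members with siCEACAM6#2 versus NTC (10.8% of all genes), for 0 of 7 with siCEACAM6#3 versus NTC (6.27% of all genes), and for 2 of 7 between the siRNAs (6.68% of all genes). The median log2 difference of the 7 genes was 0.08 with siCEACAM6#2, -0.13 with siCEACAM6#3 and -0.22 between the siRNAs, against 0.00 for all tested genes in each of these comparisons. Both comparisons with NTC use the same control samples. In bulk RNA, a different share of cells with the transcript and a different amount of it per cell cannot be told apart.

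Among the CIP/KIP genes, CDKN1A (ENSG00000124762, chromosome 6, 36676460 to 36687337, plus strand) was the member called between the siRNAs. Its product p21 stops cells in G1 after DNA damage. NTC replicates 1 to 4 had 123, 114, 107 and 93.8 CPM. The siCEACAM6#2 replicates had 143, 130, 111 and 115 CPM and the siCEACAM6#3 replicates 104, 87.6, 84.3 and 95.4 CPM. Both knockdown groups overlapped the NTC samples, but every siCEACAM6#3 sample was below every siCEACAM6#2 sample. Compared with NTC, CDKN1A differed by 0.19 (SE 0.091, adjusted p = 0.374) with siCEACAM6#2 and by -0.24 (SE 0.093, adjusted p = 0.316) with siCEACAM6#3 on the log2 scale, so neither difference passed the threshold of an adjusted p of 0.05. The siRNAs differed from each other by -0.43 (siCEACAM6#3 minus siCEACAM6#2, SE 0.092, 95% interval -0.62 to -0.23, adjusted p = 0.0287), with means of 92.9 ± 8.92 and 125 ± 14.5 CPM (SD, n = 4). This call did not hold in 5 of the 12 fits that left out 1 sample, namely when replicate 1, 2 or 4 of siCEACAM6#2 or replicate 2 or 3 of siCEACAM6#3 was omitted. Over all 12 fits the log2 difference stayed between -0.48 and -0.36, and the adjusted p reached 0.113.

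The spread of CDKN1A inside the groups (SD 0.16 on the log2 scale) was larger than in 95% of the 500 tested genes nearest to it in mean level, whose median SD was 0.082. CDKN1B, in contrast, had an SD of 0.063, larger than in only 14.2% of its own 500 neighbours.

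CDKN1B (ENSG00000111276, chromosome 12, 12685498 to 12722369, plus strand) was not called in any comparison. Its product p27 accumulates in resting cells and is regulated largely by protein degradation, which RNA-seq does not measure. It had 43.0, 45.0, 43.3 and 42.6 CPM in NTC replicates 1 to 4, 43.0, 47.4, 48.6 and 44.5 CPM with siCEACAM6#2 and 43.3, 45.3, 48.0 and 43.9 CPM with siCEACAM6#3. The 3 groups overlapped. The log2 differences from NTC were 0.08 (95% interval -0.04 to 0.19, adjusted p = 0.612) and 0.05 (-0.07 to 0.17, adjusted p = 0.738), so the intervals reach no further than 0.19 in either direction.

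CDKN1C (ENSG00000129757, chromosome 11, 2883213 to 2885775, minus strand) was measured from only 29 to 60 counts per sample. It had 2.19, 1.56, 2.62 and 1.69 CPM in NTC, 1.31, 2.77, 2.01 and 1.66 CPM with siCEACAM6#2 and 1.79, 2.12, 1.88 and 2.34 CPM with siCEACAM6#3. The groups overlapped fully. At this depth the 95% interval of the log2 difference ran from -0.55 to 0.39 with siCEACAM6#2 and from -0.42 to 0.50 with siCEACAM6#3. Differences within these bounds are not excluded.

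**Figure D2:**
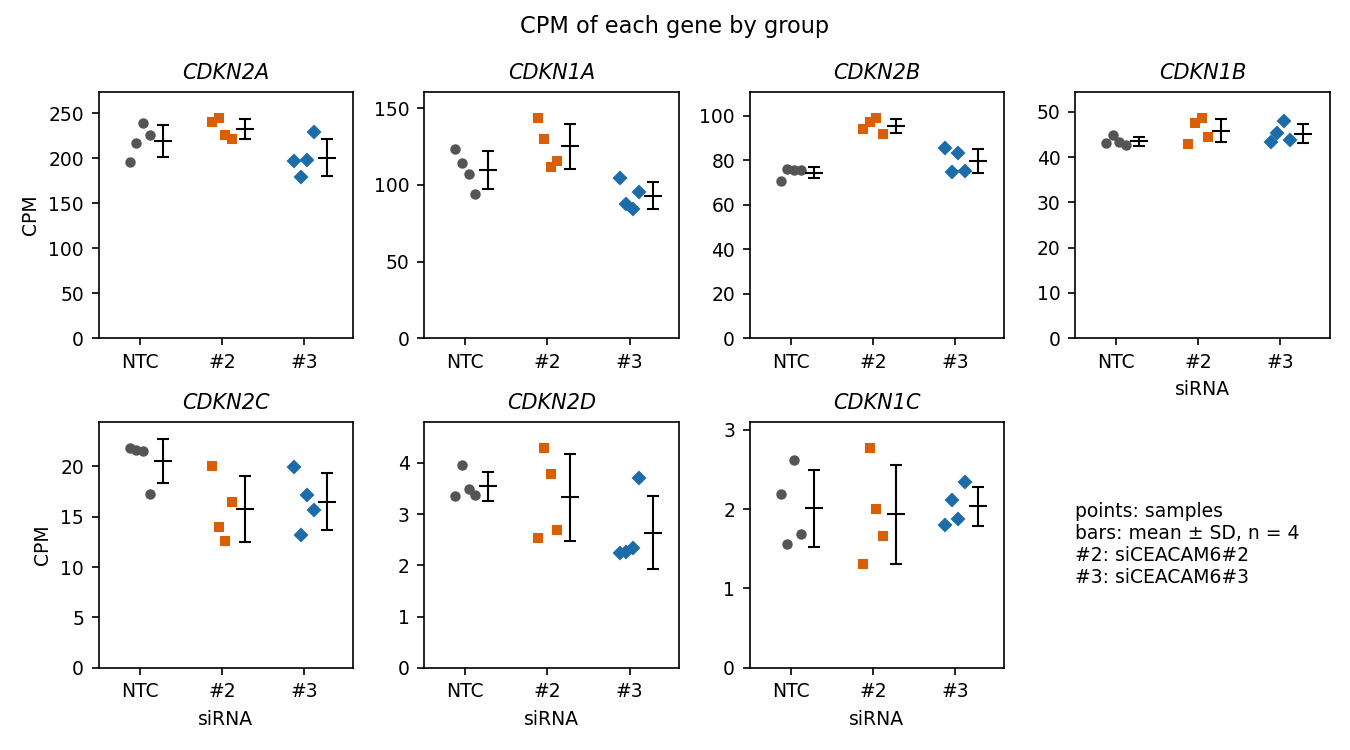
CPM of each gene in the 3 groups, with 1 panel per gene, points for samples and bars for mean ± SD (n = 4), each axis starting at 0. The 4 siCEACAM6#2 samples of CDKN2B (91.8 to 98.8 CPM) lie above all NTC and siCEACAM6#3 samples, and the siCEACAM6#3 samples of CDKN1A (84.3 to 104 CPM) lie below all siCEACAM6#2 samples.

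Within the INK4 group, CDKN2B (ENSG00000147883, chromosome 9, 22002903 to 22009305, minus strand) was the only member of the family called against the control. Its product p15INK4b is best known as the inhibitor that TGF-beta induces in epithelial cells. NTC replicates 1 to 4 had 70.7, 75.9, 75.4 and 75.7 CPM. The siCEACAM6#2 replicates had 94.0, 97.0, 98.8 and 91.8 CPM and the siCEACAM6#3 replicates 85.5, 74.5, 83.3 and 75.3 CPM. All siCEACAM6#2 samples were above all samples of the other groups, while the siCEACAM6#3 samples ran from within the NTC range to above it. With siCEACAM6#2 the gene rose by 0.36 (SE 0.055, 95% interval 0.24 to 0.48, adjusted p = 0.005) on the log2 scale, 1.28-fold, from 74.4 ± 2.50 to 95.4 ± 3.10 CPM (SD, n = 4), and ranked 23 by p among the genes tested. With siCEACAM6#3 the difference from NTC was 0.10 (SE 0.056, 95% interval -0.02 to 0.21, adjusted p = 0.493). The siRNAs differed by -0.26 (siCEACAM6#3 minus siCEACAM6#2, SE 0.055, adjusted p = 0.0247), so the rise with siCEACAM6#2 was not matched by siCEACAM6#3.

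The call of CDKN2B with siCEACAM6#2 held in all 12 fits that left out 1 sample (log2 difference 0.34 to 0.38, adjusted p at most 0.0295) and was lost when log2 TPM values were fitted in place of counts (0.32, adjusted p = 0.0843 with a pseudocount of 1). The difference between the siRNAs was less firm. It missed the threshold in 5 of the 12 leave-one-out fits, those without any 1 of the siCEACAM6#2 replicates or without siCEACAM6#3 replicate 2 (adjusted p up to 0.088). Over all 12 fits the log2 difference ran from -0.29 to -0.23.

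The RNA of CDKN2B was compared with its surroundings because CDKN2A and CDKN2B sit close together. They lie 7601 bases apart on chromosome 9, with MTAP next to them and the long noncoding RNA CDKN2B-AS1 running across CDKN2B on the other strand. MTAP and CDKN2B-AS1 did not pass the test in any of the 4 comparisons. MTAP, a methionine salvage enzyme, differed by 0.04 with siCEACAM6#2 (adjusted p = 0.853) and CDKN2B-AS1, which had a mean of only 2.89 CPM, by -0.18 (SE 0.17, adjusted p = 0.722).

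CDKN2A and CDKN2B arose by duplication, and reads from stretches that are still identical cannot be assigned to either gene. Of all 31-base words in the transcripts of each gene, those found in other genes on either strand made up 15.0% for CDKN2A and 1.98% for CDKN2B. Most of those of CDKN2A (536 of 606) were shared with the antisense CDKN2B-AS1, and 70 with CDKN2B. The largest share in the family was that of CDKN2C, 19.7% (589 of 2987), all with 1 other gene, ENSG00000290102. The deposited counts of CDKN2A were whole numbers, within a tolerance of 0.01, in 0 of 12 samples and those of CDKN2B in 1 of 12, against 12 of 12 for CDKN1A, CDKN1B, CDKN2C and CDKN2D. The values of CDKN2A and CDKN2B thus include reads divided by estimation. CDKN1A shared 119 words with DINOL, an RNA on the other strand of the CDKN1A locus. Whether strand was used in counting is not given in the sources used here, so reads of an inhibitor and of its antisense partner may not be told apart.

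CDKN2A (ENSG00000147889, chromosome 9, 21967752 to 21995301, minus strand) had a negative difference between the siRNAs, as CDKN2B and CDKN1A did, but did not pass the test. It had 196, 216, 239 and 225 CPM in NTC, 240, 244, 226 and 221 CPM with siCEACAM6#2 and 196, 179, 198 and 229 CPM with siCEACAM6#3. All 3 groups overlapped, those of the siRNAs only through siCEACAM6#3 replicate 4. The log2 differences from NTC were 0.09 (SE 0.071, adjusted p = 0.645) and -0.13 (SE 0.072, adjusted p = 0.477), and that between the siRNAs was -0.22 (SE 0.072, adjusted p = 0.164). Without siCEACAM6#3 replicate 4 the difference between the siRNAs was -0.29 and passed the threshold (adjusted p = 0.0378). Gene-level values do not separate the p16INK4a and p14ARF transcripts. The mean effective length implied by the ratio of count to TPM was 678 to 747 bases and overlapped between the groups. It was scaled on single-transcript genes of over 1500 bases. It is therefore not the same measure as the full annotated lengths, which were 442 to 1052 bases.

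CDKN2C (ENSG00000123080, chromosome 1, 50960745 to 50974634, plus strand) was the member with the largest difference from NTC in the average of both siRNAs. Its product p18INK4c binds CDK6 and CDK4. It had 21.8, 21.6, 21.5 and 17.3 CPM in NTC, 20.02, 13.9, 12.6 and 16.5 CPM with siCEACAM6#2 and 19.96, 13.2, 17.2 and 15.6 CPM with siCEACAM6#3. In NTC the first 3 replicates were close to each other and replicate 4 was lower, and replicate 1 of both knockdown groups stood above this low control. The log2 differences were -0.40 (SE 0.14, adjusted p = 0.187), -0.33 (SE 0.14, adjusted p = 0.344) and, for the average, -0.36 (SE 0.12, 95% interval -0.61 to -0.12, adjusted p = 0.188), so none passed after adjustment over all genes. The spread of CDKN2C inside the groups was larger than in 97% of its 500 neighbours in level. With weights for the quality of each sample, CDKN2C passed with siCEACAM6#2 (-0.44, adjusted p = 0.0282) and in the average (-0.35, adjusted p = 0.0429).

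CDKN2D (ENSG00000129355, chromosome 19, 10566460 to 10569059, minus strand) rested on 48 to 93 counts per sample. It had 3.35, 3.96, 3.49 and 3.38 CPM in NTC, 2.54, 4.29, 3.78 and 2.69 CPM with siCEACAM6#2 and 2.24, 2.26, 2.34 and 3.70 CPM with siCEACAM6#3. In siCEACAM6#3, 3 samples lay below all NTC samples and replicate 4 lay among them. The log2 differences from NTC were -0.13 (95% interval -0.51 to 0.26) and -0.46 (95% interval -0.86 to -0.05, adjusted p = 0.345).

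**Figure D3:**
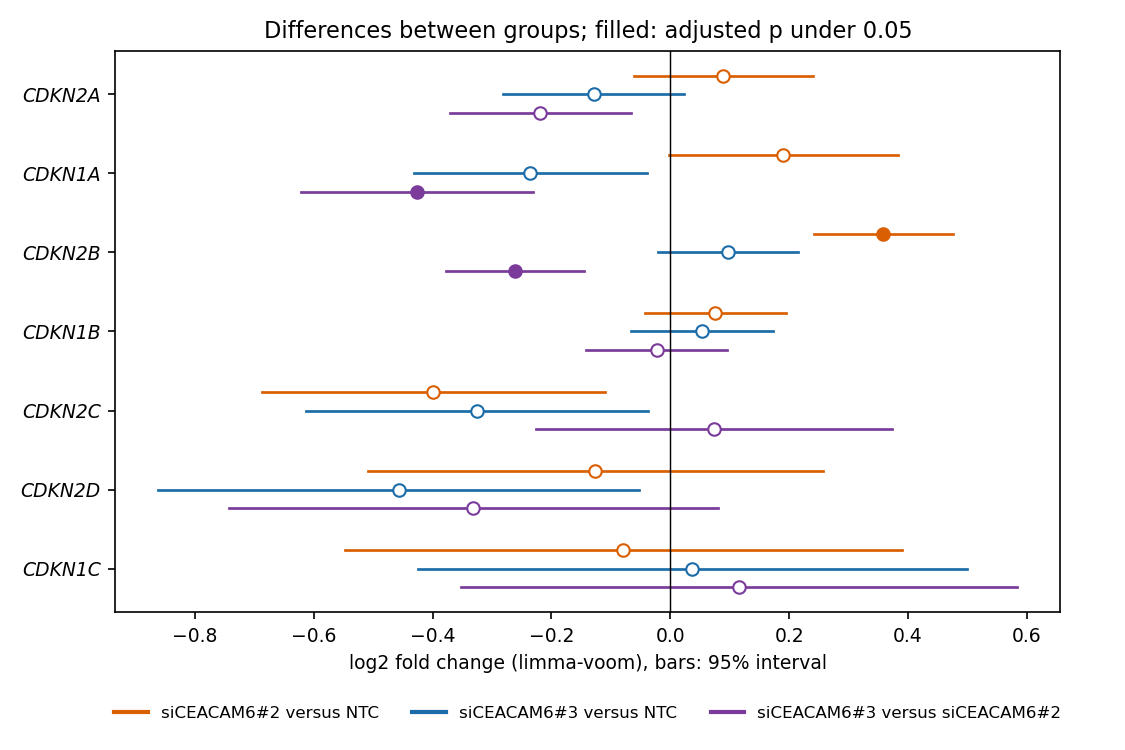
Log2 fold change of each gene in 3 comparisons (limma-voom), with bars for the 95% interval and filled points for an adjusted p under 0.05. The filled points are CDKN2B with siCEACAM6#2 versus NTC (0.36) and CDKN2B (-0.26) and CDKN1A (-0.43) in siCEACAM6#3 versus siCEACAM6#2.

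**Figure D4:**
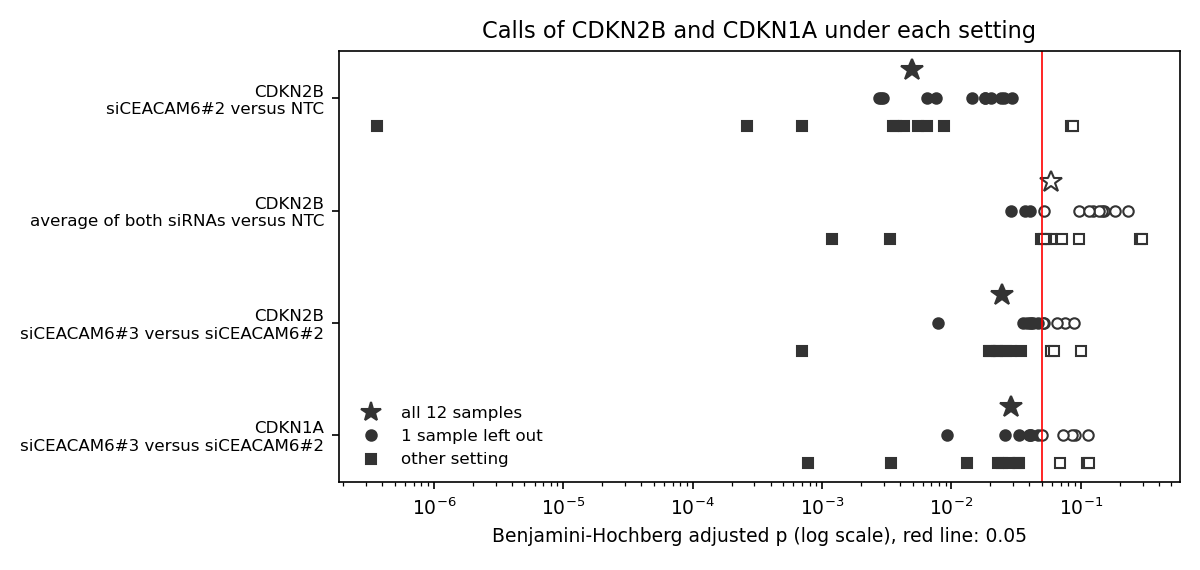
Adjusted p (log axis, line at 0.05) of CDKN2B in 3 comparisons and CDKN1A in 1, with a star for all 12 samples, circles for fits that leave out 1 sample and squares for other settings, filled where under 0.05. CDKN2B in siCEACAM6#2 versus NTC stays under 0.05 in all 12 leave-one-out fits, whereas CDKN2B and CDKN1A between the siRNAs each cross the line in 5 of 12.

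The promoters of the pair that differed between the siRNAs are shown for their sequence features. No binding of factors was measured in these samples. Each is the 250 bases before the start site from RefSeq (GRCh38.p14), chr6:36678464-36678713 on the plus strand for CDKN1A and chr9:22009306-22009555 on the minus strand for CDKN2B. The capitals mark GGGCGG, the GC box bound by SP1, on either strand, where neighbouring boxes may touch or overlap.
CDKN1A: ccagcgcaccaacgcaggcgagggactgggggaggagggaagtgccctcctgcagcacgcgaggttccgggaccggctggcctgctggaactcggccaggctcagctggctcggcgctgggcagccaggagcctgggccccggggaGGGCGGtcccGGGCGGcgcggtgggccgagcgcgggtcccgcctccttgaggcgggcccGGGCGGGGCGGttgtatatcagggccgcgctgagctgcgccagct
CDKN2B: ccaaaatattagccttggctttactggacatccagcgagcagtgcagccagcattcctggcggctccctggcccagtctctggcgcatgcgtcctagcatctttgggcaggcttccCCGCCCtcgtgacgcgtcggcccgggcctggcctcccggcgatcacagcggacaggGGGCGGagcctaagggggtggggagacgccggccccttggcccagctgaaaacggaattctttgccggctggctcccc
CDKN1A had 4 such boxes and CDKN2B 2. RefSeq gave 9 promoters for 6 of the 7 genes, and 7 of these 9 held at least 1 GC box, compared with 42.6% of 35116 promoters of the same length. The AP-1 site TGACTCA and the TATA box TATAAA were in none of the 9 windows (4.20% and 10.7% of all promoters), and the E box CACGTG was in 2 windows of CDKN2C (6.34% of all promoters). Both of the promoters shown were rich in G and C, 76.4% for CDKN1A and 66.4% for CDKN2B, against a median of 58.0%.

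The genes that regulate the inhibitors were looked at next. Of 39 listed transcription regulators, 37 were tested. With siCEACAM6#2 versus NTC 3 were called higher and 1 lower, where 1.25% of all tested genes were called. With siCEACAM6#3 versus NTC 0 were called by limma-voom, edgeR or DESeq2. There 2 had an unadjusted p under 0.05, as 12.5% of all tested genes did. JUN, a subunit of the AP-1 factor, rose by 0.63 (SE 0.097, adjusted p = 0.005) with siCEACAM6#2, KLF4, an activator of CDKN1A, by 0.33 (SE 0.047, adjusted p = 0.00434) and KLF6, another Krüppel-like factor, by 0.45 (SE 0.084, adjusted p = 0.0169). STAT3, a signal transducer of cytokines, fell by 0.19 (SE 0.044, adjusted p = 0.0438). None of these 4 genes passed with siCEACAM6#3, where the log2 differences were 0.12 for JUN, -0.01 for KLF4, 0.10 for KLF6 and 0.03 for STAT3. Between the siRNAs 4 of the 37 were called, where 1.47% of all tested genes were called. JUN (-0.51) and KLF4 (-0.34) were lower and STAT3 (0.22) and TGFBR1, a TGF-beta receptor (0.34, adjusted p = 0.0247), were higher with siCEACAM6#3. When 1 sample was left out, JUN and KLF4 with siCEACAM6#2 and KLF4 between the siRNAs passed in all 12 fits. The call of KLF6 was lost in 4 of 12 (without NTC replicate 1, 3 or 4 or siCEACAM6#2 replicate 3, adjusted p up to 0.0821) and that of STAT3 with siCEACAM6#2 in 9 of 12 (without any NTC or siCEACAM6#2 sample or siCEACAM6#3 replicate 3, up to 0.161). Between the siRNAs JUN was lost in 1 of 12 (siCEACAM6#2 replicate 3, 0.0626), STAT3 in 4 (siCEACAM6#2 replicate 1, 3 or 4 or siCEACAM6#3 replicate 3, up to 0.0746) and TGFBR1 in 4 (siCEACAM6#2 replicate 1, 2 or 3 or siCEACAM6#3 replicate 3, up to 0.0802). In 11 other settings of the fit, described below, JUN and KLF4 with siCEACAM6#2 missed in 2 each (adjusted p up to 0.0652 and 0.0845). KLF6 missed there in 2 and STAT3 in 3. Between the siRNAs KLF4 missed in 0, JUN and STAT3 in 3 each and TGFBR1 in 4. MYC, which represses CDKN1A and CDKN2B, differed from NTC by 0.15 (adjusted p = 0.277) and 0.17 (adjusted p = 0.288). The median log2 difference of the 37 genes was 0.01 in each of the comparisons with NTC, against 0.00 for all genes.

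Of 26 other genes known to be induced with CDKN1A in the DNA damage response, all 26 were tested. With siCEACAM6#2 versus NTC, where 1.25% of all tested genes were called, 3 were called higher. These were PLK2, a polo-like kinase (0.57, SE 0.087, adjusted p = 0.005), GADD45A, a growth arrest gene of the DNA damage response (0.36, SE 0.083, adjusted p = 0.0426), and CCNG1, an atypical cyclin (0.25, SE 0.056, adjusted p = 0.0369). With siCEACAM6#3 versus NTC 0 were called by limma-voom and edgeR and 1 by DESeq2, and 8 had an unadjusted p under 0.05 (12.5% of all tested genes). Between the siRNAs 2 of the 26 were called, where 1.47% of all tested genes were called. PLK2 (-0.41) and BBC3, the apoptosis gene that encodes PUMA (-0.40, adjusted p = 0.0308), were lower with siCEACAM6#3, as CDKN1A was. PLK2 with siCEACAM6#2 passed in all 12 leave-one-out fits. GADD45A missed in 7 of 12 (without any NTC sample, siCEACAM6#2 replicate 2 or 3 or siCEACAM6#3 replicate 3, adjusted p up to 0.171) and CCNG1 in 7 of 12 (without any NTC sample or siCEACAM6#2 replicate 2, 3 or 4, up to 0.161). Between the siRNAs PLK2 missed in 3 of 12 (siCEACAM6#2 replicate 2 or 3 or siCEACAM6#3 replicate 3, up to 0.0861) and BBC3 in 6 of 12 (NTC replicate 3, siCEACAM6#2 replicate 1, 2 or 4 or siCEACAM6#3 replicate 2 or 3, up to 0.1). In the 11 other settings PLK2 with siCEACAM6#2 missed in 2 (adjusted p up to 0.0609), GADD45A in 3 and CCNG1 in 4. For the difference between the siRNAs PLK2 missed in 3 of these settings and BBC3 in 4. MDM2, which encodes a ubiquitin ligase, differed by -0.15 from NTC with both siRNAs (adjusted p = 0.493 and 0.507). The list had 18 positive and 8 negative log2 differences with siCEACAM6#2, 11 and 15 with siCEACAM6#3, and 6 and 20 between the siRNAs. Its median between the siRNAs was -0.10, against -0.004 for all tested genes.

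Among the direct partners of the inhibitors few genes were called. Of 16 listed cyclins, CDKs and their regulators, 14 were tested and 0 were called against NTC with either siRNA by limma-voom and edgeR. DESeq2 called 1 with siCEACAM6#2 and 0 with siCEACAM6#3, and 4 had an unadjusted p under 0.05 with each siRNA, against 13.6% of all tested genes with siCEACAM6#2 and 12.5% with siCEACAM6#3. CCND1, the D-type cyclin that INK4 proteins oppose, was called between the siRNAs, lower with siCEACAM6#3 (-0.22, SE 0.04, adjusted p = 0.014). There 1.47% of all tested genes were called. The call of CCND1 was lost without siCEACAM6#2 replicate 2 or 3 (adjusted p up to 0.0626) and in 3 of 11 other settings. CCND1 had differed from NTC by 0.15 (adjusted p = 0.078) and -0.07 (adjusted p = 0.527). CDK4, at a mean of 154 TPM, differed by -0.13 and -0.24 from NTC (adjusted p = 0.568 and 0.267), CDK6 by 0.01 and -0.09, CDK2 by -0.11 and -0.19 and CCNE1 by -0.20 and 0.01, and none of these passed.

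Downstream of the kinases, 19 of 19 listed RB and E2F genes were tested and 0 were called in any of the 4 comparisons by limma-voom, edgeR or DESeq2. An unadjusted p under 0.05 was found for 6 genes in siCEACAM6#2 versus NTC and 3 in siCEACAM6#3 versus NTC. It was found for 7 when both siRNAs were averaged and for 0 when they were compared with each other. The shares of all tested genes were 13.6%, 12.5%, 12.9% and 13.3% in this order. RB1 differed from NTC by -0.02 and 0.02 and E2F1 by -0.03 and 0.01. The median of the list was -0.04 with siCEACAM6#2 and -0.05 with siCEACAM6#3. In the protein turnover of p21, p27 and p57, 15 of 15 genes were tested. With siCEACAM6#2 versus NTC, where 1.25% of all tested genes were called, 2 were called lower. These were DDB1, part of the CRL4 ligase that degrades p21 (-0.19, adjusted p = 0.0422), and CDC20, an activator of the anaphase-promoting complex (-0.29, adjusted p = 0.0403). CDC20 was also lower in the average of both siRNAs (-0.31, adjusted p = 0.0332) and DDB1 was higher with siCEACAM6#3 than with siCEACAM6#2 (0.18, adjusted p = 0.0484). The shares of all tested genes called there were 0.227% and 1.47% in this order. With siCEACAM6#3 versus NTC 0 of the 15 were called by limma-voom and edgeR and 1 by DESeq2. There 5 had an unadjusted p under 0.05, against 12.5% of all tested genes. CDC20 differed by -0.33 (adjusted p = 0.102) there. With siCEACAM6#2 versus NTC, DDB1 passed in 4 of 12 leave-one-out fits (without siCEACAM6#2 replicate 1 or siCEACAM6#3 replicate 1, 2 or 4, adjusted p up to 0.178 in the others). CDC20 missed in 7 of 12 (without any NTC sample or siCEACAM6#2 replicate 2, 3 or 4, up to 0.161). In the average CDC20 passed in 3 of 12 (without siCEACAM6#2 replicate 1 or siCEACAM6#3 replicate 1 or 4, up to 0.179 in the others), and DDB1 between the siRNAs in 2 of 12 (without replicate 1 of either siRNA, up to 0.156). In the 11 other settings DDB1 and CDC20 with siCEACAM6#2 missed in 3 each, and DDB1 between the siRNAs missed in 6. CDC20 in the average missed in 2 of 10. SKP2, the ligase subunit that marks p27 for degradation, differed by 0.00 and -0.16 from NTC (adjusted p = 0.994 and 0.378). Among 17 neighbours of the inhibitor loci, 15 were tested, and STK38, a kinase gene near CDKN1A, was the 1 called by limma-voom in any comparison, higher with siCEACAM6#3 than with siCEACAM6#2 (0.31, adjusted p = 0.041). Its call held in 1 of 12 leave-one-out fits, that without siCEACAM6#3 replicate 1 (adjusted p up to 0.151 in the others), and in 6 of 11 other settings.

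Over the 12 samples the Pearson correlations of log2 CPM between the 21 pairs of members ran from -0.66 to 0.62. These samples share treatment groups and differ in library composition, and the values are given as a description. Among 9882 or 9883 other tested genes with a mean of at least 10 CPM, those most like CDKN2B in pattern were CXCL8, a chemokine (r = 0.95 over 12 samples), ZPR1 (0.92) and FEZ1 (0.92). After removal of the group means these 3 values were 0.83, 0.72 and 0.71. The highest of so many correlations over 12 samples can be high by chance. Most like CDKN1A were NAA20 (0.95), APTX (0.94) and PGAP2 (0.90), and most like CDKN2A were NHP2 (0.95) and NRBP1 (0.95). CDKN2C was closest to GPS2 (0.98), TIMM17A (0.97) and ZWINT, a kinetochore gene (0.97), and the correlation with GPS2 after removal of the group means was also 0.98. CDKN1B was closest to SPOCK3 (0.93), VPS45 (0.90) and COX7A2L (0.89). For the low genes the values were lower, 0.91 for CDKN1C with BBLN, followed by TMEM45B (0.87) and HOXC10 (0.85), and 0.86 for CDKN2D with SPINT1-AS1, followed by METTL2A (0.85) and GSS (0.85).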

How the data were processed

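RNA-seq was measured in 12 samples of SNU308 cells (NTC, siCEACAM6#2 and siCEACAM6#3, 4 each). The authors trimmed reads with Trim Galore 0.6.4 and quantified them with kallisto on GRCh38.p13 transcripts, and deposited estimated counts and TPM per gene. How transcript values became gene values is not given in the sources used here. The labels and the study's methods differ on the transfection reagent and the read layout.

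Counts were rounded and fitted with limma-voom (limma 3.58.1, edgeR 4.0.16, R 4.3.3) after filterByExpr by group (17620 genes kept) and TMM scaling, with group means and no covariates. Genes were called at a Benjamini-Hochberg adjusted p under 0.05 over all genes tested. Alternatives were other scalings, filters, edgeR, DESeq2 1.42.0, sample weights, a replicate block, fewer groups, log2(TPM + 1), log2(TPM + 0.1) and leave-one-out fits. The script was tested on simulated data. Total counts were 21799476 to 22059456 per sample. The 95% intervals come from limma-voom and rest on the spread between replicates.

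The 7 genes, the pathway lists and the naming rule were chosen with earlier results of these data known. Named were all members, CEACAM6, 13 pathway genes in all cases, any other listed gene that was called, and for each member the 3 most correlated genes of at least 10 CPM. A few items picked this way are not reported here. Gene positions came from GENCODE on GRCh38 and promoters from RefSeq. No protein sequences were used here.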

Additional observations from a re-analysis of the deposited data

Results flagged for a closer look

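In 3 of the 21 sets of 4 samples (7 genes in 3 groups) 1 sample lay far from the others by Dixon's test, which flags about 1 in 20 sets by chance. They were CDKN2B in NTC replicate 1 (70.7 CPM, below the other controls), CDKN2C in NTC replicate 4 (17.3 CPM, below) and CDKN2D in siCEACAM6#3 replicate 4 (3.70 CPM, above).

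The effects of the siRNAs, which share the NTC samples, differed by the test of the difference itself (siCEACAM6#3 minus siCEACAM6#2, log2 scale, limma-voom) for CDKN1A (-0.43) and CDKN2B (-0.26). Among the listed pathway genes they also differed for CCND1 (-0.22), KLF4 (-0.34), JUN (-0.51), BBC3 (-0.40), PLK2 (-0.41), DDB1 (0.18), TGFBR1 (0.34), STAT3 (0.22) and STK38 (0.31). CEACAM6 was itself higher with siCEACAM6#3 than with siCEACAM6#2 by 0.35 (adjusted p = 0.016, and up to 0.0576 in the 2 of 12 leave-one-out fits that lost the call, those without replicate 3 of either siRNA), so the depth of knockdown and the identity of the siRNA cannot be told apart in these differences.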

How the results depend on the processing

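Of 28 results (7 genes in 4 comparisons), 13 kept their direction and side of the threshold under all alternatives run, 11 settings and 12 leave-one-out fits (10 settings for the average). The number of called members with siCEACAM6#2 was 1, became 2 with sample weights and 0 with log2(TPM + 1) and log2(TPM + 0.1), and was 1 in every leave-one-out fit. Between the siRNAs it was 2, became 0 with log2(TPM + 1), log2(TPM + 0.1) and only the groups compared, and ran from 0 to 3 over leave-one-out fits. In the average it was 0, became 1 with DESeq2 and with at least 1 CPM in 4 samples and 2 with sample weights, and ran from 0 to 1 over leave-one-out fits. With siCEACAM6#3 it was 0 in all of them. The cause of these changes was not tested.

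A change of sign occurred in 8 of the 28 results, none of them called and none above 0.12 in size. With sample weights the log2 difference became -0.0357 for CDKN1C in siCEACAM6#3 versus NTC and 0.00736 for CDKN1B between the siRNAs. Over leave-one-out fits CDKN1C ran from -0.263 to 0.0912 with siCEACAM6#2, from -0.0731 to 0.173 with siCEACAM6#3, from -0.132 to 0.115 in the average and from -0.0506 to 0.303 between the siRNAs. In the average CDKN1A ran from -0.0944 to 0.0394 and CDKN2A from -0.0682 to 0.0255, and between the siRNAs CDKN1B ran from -0.0534 to 0.00521 and CDKN2C from -0.0269 to 0.196. CDKN2B in the average (0.23, adjusted p = 0.0592) passed in 3 of 12 leave-one-out fits, those without siCEACAM6#2 replicate 1 or siCEACAM6#3 replicate 1 or 4.

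Over all genes the number called with siCEACAM6#2 was 221 and became 534 with DESeq2, 1120 with sample weights, 600 with only the groups compared and 5 and 6 with log2(TPM + 1) and log2(TPM + 0.1). With siCEACAM6#3 it was 12 and became 221, 382 and 87 with DESeq2, sample weights and the replicate block, 24 without a filter and 4 in both TPM fits. In the average it was 40 and became 337, 899 and 118 with DESeq2, sample weights and the replicate block, and 2 and 7 in the TPM fits. Between the siRNAs it was 259 and became 556, 560 and 57 with DESeq2, sample weights and only the groups compared, and 49 and 53 in the TPM fits. Over leave-one-out fits these numbers ran from 49 to 364, 2 to 258, 3 to 204 and 83 to 651 in the same order.

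The replicate block left the number of called members at 1, 0, 0 and 2 in the order siCEACAM6#2, siCEACAM6#3, average and between the siRNAs. The numbers were not taken to pair the samples in the main fit. Of the same-numbered pairs 2 of 12 had a correlation of deviations over 0.1, and 4 of 12 samples had their highest correlation with a same-numbered sample. The correlations ran from -0.060 to 0.224 in same-numbered pairs and from -0.251 to 0.179 in other pairs. These values do not decide whether the samples were paired, and the block changed the number of genes called, as given above. Depth limits CDKN1C and CDKN2D, which had under 100 counts per sample.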
